A study of Mus musculus with 20 samples.

Results

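Naive CD4 T cells deficient in Il6ra, which encodes the ligand-binding chain of the IL-6 receptor, were compared across all genes with wild-type naive CD4 T cells. The comparison rests on 4 libraries, 2 per genotype, chosen by the source name of each library, out of 20 libraries in the series. All 4 came from C57BL/6 mice that carried an IL-17F/Thy1.1 reporter allele, which the labels mark Hz. The groups differed in the labelled genotype only, reporter alone against IL6Ra-/- with the reporter. The design text gives spleen and lymph nodes as the source of the T cells. The naive libraries were the controls of Th17 cultures, in which sorted naive cells were kept for 6 days with irradiated antigen-presenting cells, TGF-beta at 2.5 ng/ml and either IL-6 at 20 ng/ml or hyper-IL-6 at 63 ng/ml. Cultured libraries were wild type with IL-6, wild type with hyper-IL-6 and Il6ra-deficient with hyper-IL-6, 2 libraries each, and completed an experiment of 10 libraries. The other 10 libraries held Th17 cells of both genotypes (CD45.1 for wild type, CD45.2 for Il6ra-deficient) from an adoptive transfer. They were taken before transfer, after 6 days of culture with 20 ng/ml hyper-IL-6 and 2.5 ng/ml TGF-beta (2 libraries per genotype), or as pools from the colon of Rag-/- recipients that were given cells of both genotypes (3 per genotype). How many mice gave each library, and whether replicates were separate mice, is not stated in the labels. The spread behind each p-value is thus that of these libraries and may be technical.

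IL-6 binds its receptor alpha chain on the cell surface, and the pair engages gp130, the signalling chain encoded by Il6st. Receptor-bound JAK kinases then phosphorylate STAT3, which induces its own inhibitor Socs3. Naive CD4 T cells carry both receptor chains, and IL-6 together with TGF-beta directs them to the Th17 fate. Hyper-IL-6 joins IL-6 to the soluble receptor, so that cells without the alpha chain can still respond.

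The naive libraries held between 20160774 and 26648954 reads in genes, and levels are given as CPM, the reads of a gene scaled to TMM-adjusted library size. They had the markers of naive CD4 T cells: Cd4, the co-receptor, was between 810 and 1016 CPM, Ccr7, the lymph node homing chemokine receptor, between 562 and 658 CPM, and Tcf7, a transcription factor of naive T cells, between 1828 and 2390 CPM. Cd44, which marks activated cells, was between 34.1 and 42.7 CPM. The extraction label gives 4 h of PMA and ionomycin for every library of the experiment, yet Il2, which that stimulation induces in T cells, was at most 0.538 CPM in the naive libraries and 891 CPM in the first wild-type library cultured with IL-6. Whether the naive cells were stimulated cannot be told from the labels. Defining markers of other cells were low, with Cd8a at most 0.587 CPM, Ms4a1, of B cells, at most 1.02 CPM and Siglech, of plasmacytoid dendritic cells, at most 0.339 CPM. Other genes that mark non-T cells were higher, with the immunoglobulin gene Ighm between 407 and 457 CPM, the lysosomal protease gene Ctss between 121 and 161 CPM and the MHC class II chaperone gene Cd74 between 4.24 and 24.4 CPM.

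The first wild-type library stood apart from the other 3 naive libraries. Its root mean square distance to each of them was between 0.714 and 0.751 in log2 CPM, while the distances among the other 3 were between 0.553 and 0.674. The closest pair was wild-type library 2 and deficient library 2, at 0.553. The deficient pair was at 0.636 and the wild-type pair at 0.714, so on this distance the libraries did not group by genotype. A pair of cultured libraries went against their labels at genes that separated the naive genotypes. Nefh, which encodes the heavy neurofilament subunit, was 0.244 and 0.424 CPM in naive wild-type cells and 8.68 and 8.53 CPM in naive Il6ra-deficient cells. In cultured cells Nefh was 2.44 and 75.7 CPM in the libraries labelled wild type with IL-6, 2.43 and 2.29 CPM in wild type given hyper-IL-6, and 74.9 and 2.91 CPM in those labelled Il6ra-deficient with hyper-IL-6. The library labelled wild type with IL-6, replicate 2, thus lay with the first Il6ra-deficient library, and the library labelled Il6ra-deficient with hyper-IL-6, replicate 2, lay with wild type. Tcn2, Synj2 and Slc35e4 had the same order. These genes were picked for their naive difference, and no library was reassigned. Both cultured libraries enter the pooled spread, so counts are also given without them.

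**Figure D1:**
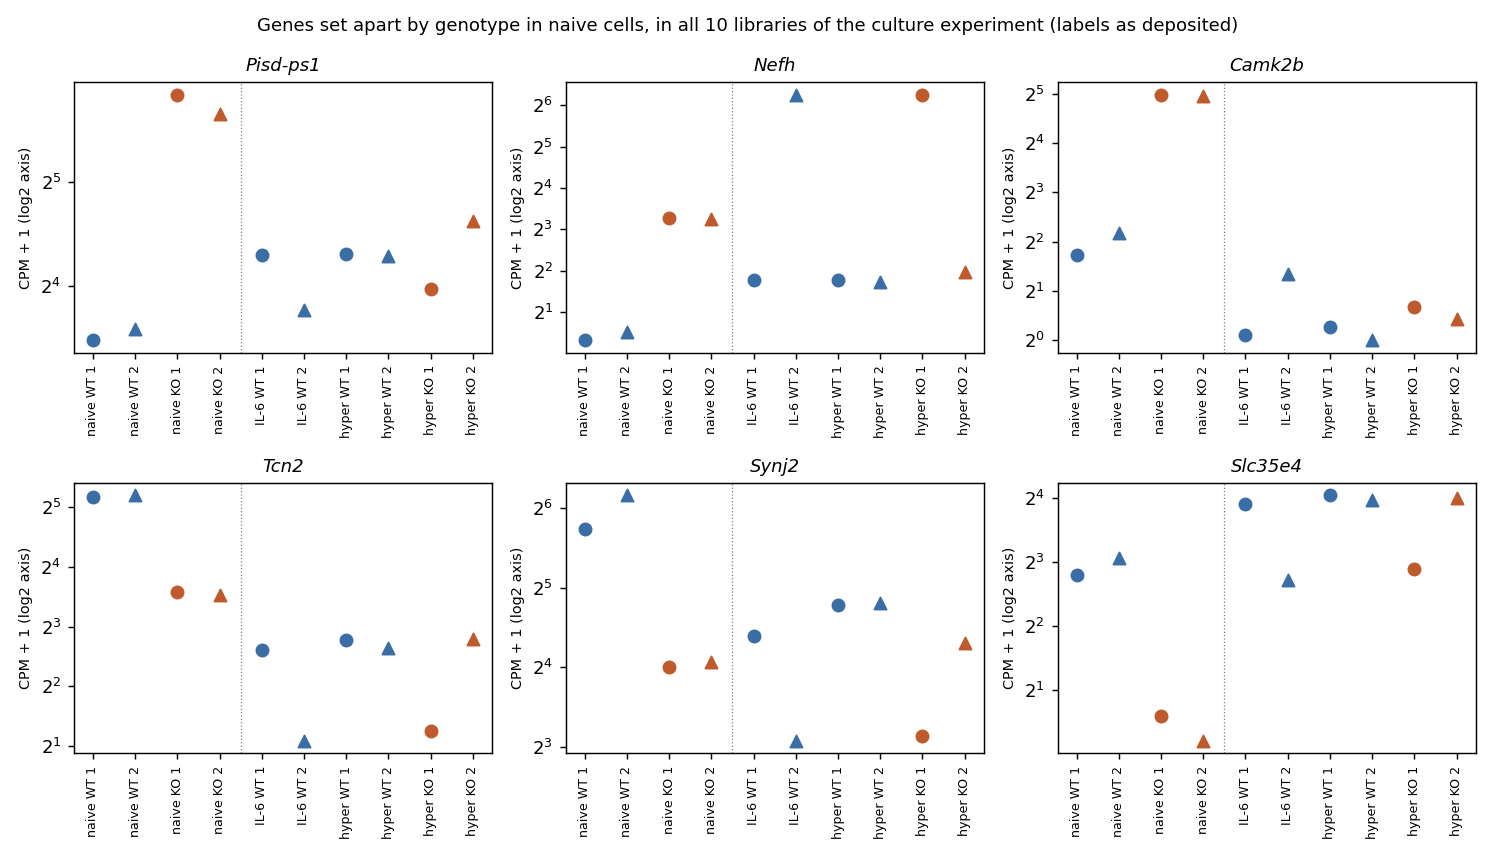
CPM + 1 on a log2 axis for 6 genes in each of the 10 libraries of the culture experiment, blue for libraries labelled wild type and orange for those labelled Il6ra-deficient, circles for replicate 1 and triangles for replicate 2. For Nefh, Tcn2, Synj2 and Slc35e4, the second library of wild type with IL-6 sits at the level of the first Il6ra-deficient library, and the second Il6ra-deficient library sits at that of wild type.

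Il6ra itself was 270 and 422 CPM in wild-type cells and 199 and 213 CPM in Il6ra-deficient cells. Both Il6ra-deficient libraries lay below both wild-type libraries, but transcripts of the gene were plentiful in all 4. The log2 fold change was -0.75 ± 0.17 (SE, n = 2 libraries per genotype), with an adjusted p of 0.263 in edgeR's quasi-likelihood test with Benjamini-Hochberg adjustment. DESeq2 on the same 10 libraries gave an adjusted p of 0.00597. Without wild-type library 1 the log2 fold change was -1.03, and without wild-type library 2 it was -0.39, each resting on a single wild-type library. The counts cover the whole gene (GRCm38 chr3:89864059-89913196), while the position of the deletion was not known here, so this level does not check the genotype labels.

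Among signalling partners of the receptor, Il6st and Jak1 overlapped between the genotypes, while Stat3 was lower in both deficient libraries. Il6st was 566 and 610 CPM in wild-type cells and 584 and 592 CPM in Il6ra-deficient cells, so the genotypes overlapped. Jak1, a kinase bound to gp130, was 1060 and 1181 CPM in wild type and 1094 and 1132 CPM in deficient cells and also overlapped. Stat3 was 471 and 310 CPM in wild type and 267 and 279 CPM in deficient cells (log2 fold change -0.52 ± 0.17, adjusted p = 0.378 by edgeR), with the first wild-type library well above the second. Over 16 tested genes of IL-6 family receptors, sheddases and JAK-STAT, the median log2 fold change was -0.01, beside 0 over all 14926 genes tested. Of these 16, 4 had both deficient libraries below both wild-type libraries (25%, beside 18.9% of all genes). Both lay above in 1 (6.25%, beside 18.6%).

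Socs3, the feedback inhibitor of gp130 signalling, separated the genotypes. It was 369 and 199 CPM in wild-type cells and 121 and 118 CPM in Il6ra-deficient cells. The 2 deficient libraries were nearly equal and lay below both wild-type libraries, which differed from each other. The log2 fold change was -1.25 ± 0.22 with an adjusted p of 0.146 by edgeR. Without the first wild-type library it was -0.73 and without the second it was -1.63, each resting on a single wild-type library. DESeq2 put it past the threshold with all 10 libraries (adjusted p = 2.45e-05) but not with the 4 naive libraries alone (0.394).

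The Socs3 promoter holds the palindrome that STAT proteins bind, TTCNNNGAA, which reads the same on both strands. It occurs in the 250 bases before the start of 7.18% of 27025 RefSeq genes (first-listed start, GRCm38.p6), and of 3 of 16 STAT3-list members with a promoter entry (18.8%). The palindrome is not particular to that list, as it occurs before 8 of 27 interferon-stimulated genes (29.6%) and 4 of 12 Th1 genes (33.3%). It was not found before Bcl3, Batf or Pim2, which are described next. The sequence is shown because Socs3 is the feedback gene these values turn on. It spans GRCm38.p6 chr11:117969367-117969616 on the minus strand, is written 5′ to 3′ up to the start site and has the match in capitals.
Socs3: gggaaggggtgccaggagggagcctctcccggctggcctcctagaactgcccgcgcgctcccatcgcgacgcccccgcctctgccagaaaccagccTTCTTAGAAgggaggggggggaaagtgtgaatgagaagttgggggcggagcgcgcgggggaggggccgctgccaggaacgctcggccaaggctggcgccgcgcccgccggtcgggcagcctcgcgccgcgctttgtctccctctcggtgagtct

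Other STAT3-induced genes were uneven. Bcl3, an atypical inhibitor of NF-kappaB, was 145 and 42.6 CPM in wild-type cells and 33.3 and 30.3 CPM in deficient cells. Batf, an AP-1 factor needed for Th17 cells, was 48.6 and 20.97 CPM against 16.4 and 19.8 CPM. Pim2, a survival kinase, was 109 and 60.8 CPM against 46.2 and 52.1 CPM. In these 3 genes both deficient libraries were the lower ones, and the first wild-type library was far above the second. Bcl2, which protects from cell death, went the other way, at 191 and 235 CPM in wild type and 264 and 339 CPM in deficient cells. Of 19 tested members of the STAT3 list, 7 had both deficient libraries below both wild-type libraries (36.8%, beside 18.9% of all genes tested) and 2 had both above (10.5%, beside 18.6%). The list's median log2 fold change was -0.27, and it was 0.13 without the first wild-type library and -0.65 without the second. With all libraries no member passed edgeR's test. At an unadjusted p under 0.05 there were 8 members (beside 10.4% of all genes), 6 of them lower (beside 5.98%). By DESeq2 with 10 libraries 1 passed, beside 0.775% of all genes with an adjusted p.

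**Figure D2:**
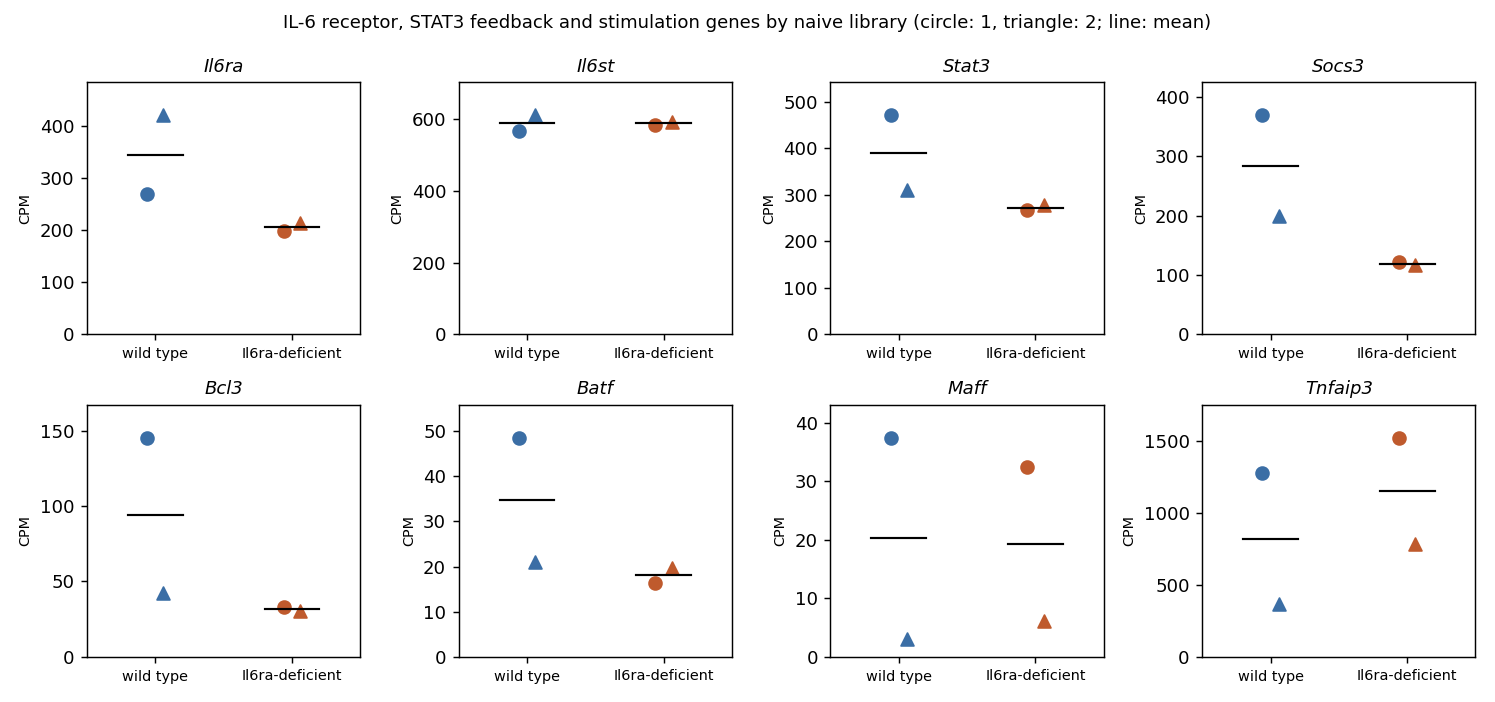
CPM of 8 genes in the 4 naive libraries, with circles for replicate 1, triangles for replicate 2 and lines for group means. Socs3, Bcl3 and Batf show both Il6ra-deficient libraries below both wild-type libraries with a wide wild-type spread, Il6st overlaps, and Maff and Tnfaip3 separate replicate 1 from replicate 2 in both genotypes.

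Lineage genes of helper T cells differed in level, and none passed edgeR's test. Il17a, Il17f and Il22, the Th17 cytokines, were at most 0.157 CPM in the naive libraries, and Il23r was at most 0.212 CPM. Foxp3, of regulatory T cells, was 18.5 and 23.7 CPM in wild type and 14.9 and 14.6 CPM in deficient cells (log2 fold change -0.52 ± 0.26, adjusted p = 0.514 by edgeR). Ahr, a ligand-activated factor used by Th17 cells, was 1.76 and 2.29 CPM in wild type and 3.51 and 3.09 CPM in deficient cells (0.69 ± 0.19, adjusted p = 0.335). Foxp3, Ahr and Gata3 did not overlap between the genotypes, while Rora, Maf and Bcl6 did. Gata3, Rora, Maf and Bcl6 had log2 fold changes between -0.46 and 0.18 with adjusted p-values between 0.489 and 0.69 by edgeR.

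Across all genes, edgeR called 1 of 14926 genes tested (0.0067%), the pseudogene Pisd-ps1. At an unadjusted p under 0.05 there were 1554 genes (10.4%), of which 661 were higher in Il6ra-deficient cells (4.43%) and 893 lower (5.98%). DESeq2 with the same 10 libraries called 91 of 11736 genes with an adjusted p (0.775%), 55 of them higher (0.469%) and 36 lower (0.307%). On the 4 naive libraries alone edgeR called 5 genes (0.0389% of 12858), namely Pisd-ps1, Camk2b and Nefh higher (0.0233%) and Tcn2 and Synj2 lower (0.0156%). DESeq2 called 66 there (0.511% of 12922), 49 higher (0.379%) and 17 lower (0.132%). Without the 2 cultured libraries that went against their labels, edgeR called 8 genes, 4 in each direction: Nefh, Tcn2, Synj2, Slc35e4, Rnf157, H2-Q6, Pisd-ps1 and AC149090.1. The count moved widely when single naive libraries were left out. Each such fit leaves a single library in its genotype and holds no spread of that genotype, so its counts are not given. Known changes were simulated for this comparison among 14682 genes, 100 genes per size. There edgeR found 88% of those set at 2-fold and 98% of those at 4-fold, and called 12 unchanged genes. The simulated naive libraries had a common level per gene, apart from the set changes, and independent spread. A library that stands apart, as wild-type library 1 did, was not simulated. Changes were set only in genes above a count floor. These shares thus do not give the power in the real libraries.

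Pisd-ps1 is an unprocessed pseudogene of phosphatidylserine decarboxylase at GRCm38 chr11:3125904-3131004. It was 10.2 and 11.0 CPM in wild-type cells and 56.2 and 49.3 CPM in Il6ra-deficient cells, groups that lay far apart. Expression rose by 2.31 ± 0.24 on the log2 scale in deficient cells (SE, n = 2 per genotype, adjusted p = 0.0211 by edgeR's quasi-likelihood test). edgeR's adjusted p was 0.0929 with the replicate number as a block and 0.0629 when tested against a minimum fold of 1.5. The log2 fold change was 2.26 without wild-type library 1 and 2.22 without deficient library 1. Reads of near-identical copies can be lost or shared. The parent gene Pisd was 16.6 and 13.9 CPM in wild type and 17.5 and 12.4 CPM in deficient cells and overlapped. With hyper-IL-6 culture Pisd-ps1 was 18.8 and 18.6 CPM in wild type and 14.7 and 23.8 CPM in the libraries labelled deficient, which overlapped. In the colon it was between 10.7 and 18.5 CPM in 3 wild-type libraries and between 19.0 and 24.7 CPM in 3 deficient libraries, without overlap.

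Several genes close to Pisd-ps1 at the start of chromosome 11 also set the naive genotypes apart, and they went in both directions. Of 89 genes tested in the first 10 Mb, 30 had both deficient libraries above both wild-type libraries (33.7%, beside 18.6% of all genes) and 23 had both below (25.8%, beside 18.9%). Among 1184 genes of the chromosome beyond 10 Mb, these shares were 19.2% and 17.5%. This region was chosen after the values were seen, and other regions had similar shares. Among 5 Mb bins of the genome, its first bin had 17 of 48 genes at an unadjusted p under 0.05 (35.4%). A bin of chromosome 19 had 9 of 25 (36%) and a bin of chromosome 7 had 12 of 37 (32.4%). At that p, 13 genes of the first 10 Mb of chromosome 11 were higher (14.6%, beside 4.43% of all genes) and 11 lower (12.4%, beside 5.98%). Within 20 Mb of Il6ra on chromosome 3, 15 of 362 genes were higher (4.14%, beside 4.43% of all genes) and 21 lower (5.8%, beside 5.98%) at that p. There edgeR called 0 and DESeq2 3, and 0.775% of all genes were called by DESeq2.

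Camk2b, a subunit of calcium and calmodulin-dependent kinase II, lies at chr11 from position 5969644. It was 2.30 and 3.52 CPM in naive wild-type cells and 30.6 and 29.9 CPM in naive deficient cells. The 2 groups were tight and apart, yet the log2 fold change of 3.37 ± 0.69 had an adjusted p of 0.202 in the fit of 10 libraries and 0.00828 in the naive libraries alone (edgeR). Before transfer it was 0.798 and 2.68 CPM in wild type and 9.71 and 20.5 CPM in deficient cells. In the colon it was between 7.12 and 9.90 CPM in wild type and between 51.1 and 83.7 CPM in deficient cells, so Camk2b was higher in every deficient library of these 3 settings.

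Tcn2, which encodes transcobalamin, the carrier of vitamin B12, was 34.9 and 35.9 CPM in naive wild-type cells and 11.0 and 10.5 CPM in deficient cells. Slc35e4, a putative solute carrier next to it, was 5.96 and 7.33 CPM against 0.517 and 0.157 CPM. The 2 genes overlapped between the genotypes before transfer and in the colon. Synj2, a phosphoinositide phosphatase of chromosome 17, was 52.4 and 70.9 CPM in naive wild-type cells and 15.1 and 15.7 CPM in deficient cells. Synj2 was also lower in all deficient libraries before transfer (13.3 and 22.9 CPM against 32.2 and 36.5 CPM) and in the colon (between 72.4 and 79.5 CPM against between 116 and 136 CPM). The log2 fold changes in naive cells were -1.72 ± 0.58 for Tcn2, -4.38 ± 0.70 for Slc35e4 and -2.0 ± 0.44 for Synj2, with edgeR adjusted p-values of 0.378, 0.0943 and 0.228 in the 10-library fit.

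Smaller gaps near Pisd-ps1 were seen at Kremen1, a Wnt co-receptor (66.0 and 82.5 CPM against 122 and 130 CPM), and Limk2, a kinase of the actin cytoskeleton (97.0 and 94.4 CPM against 142 and 139 CPM). Emid1 was lower, at 18.6 and 16.6 CPM in wild type and 9.50 and 6.18 CPM in deficient cells. These genes were named after their values were seen. None of the 3 passed edgeR's test, and all 3 passed by DESeq2 with 10 libraries (adjusted p between 3.01e-05 and 0.0497).

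**Figure D3:**
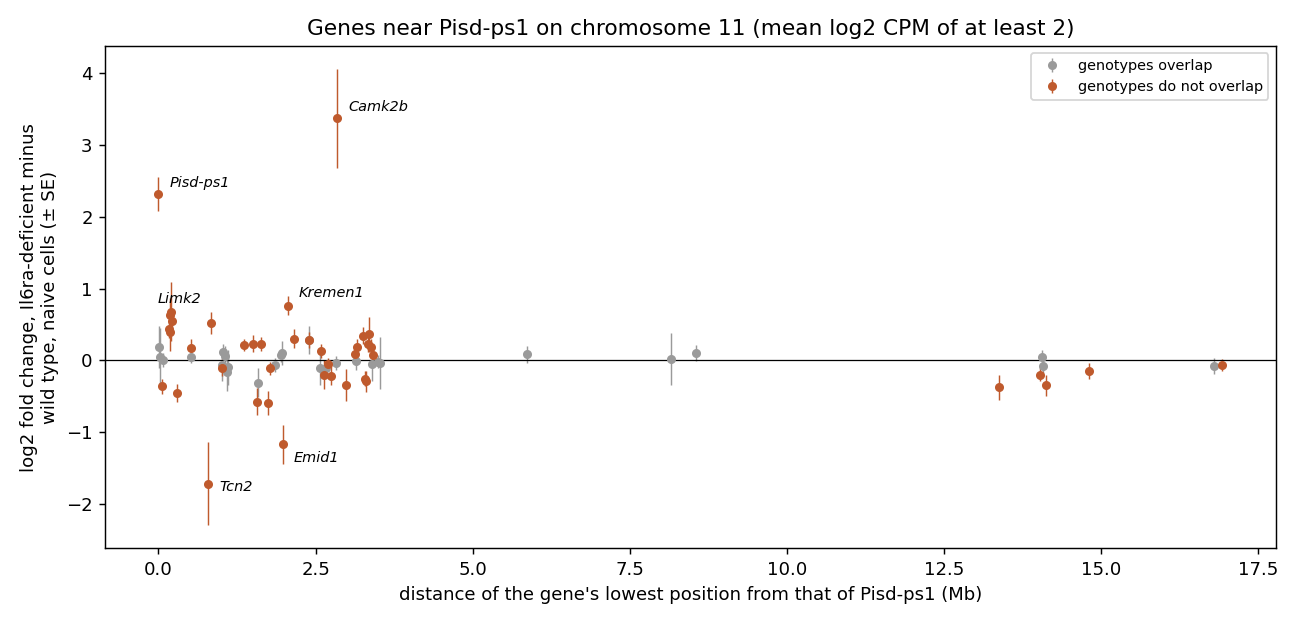
Naive log2 fold change (Il6ra-deficient minus wild type, ± SE) of chromosome 11 genes with mean log2 CPM of at least 2 that lie up to 17 Mb from Pisd-ps1, by that distance. Pisd-ps1 and Camk2b lie above 2, Tcn2 and Emid1 below -1, and the genes drawn beyond 5 Mb lie between -1 and 1.

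Interferon-stimulated genes, which cells switch on in response to interferons, mostly had higher values in Il6ra-deficient cells. Both Il6ra-deficient libraries lay above both wild-type libraries in 28 of 37 tested members (75.7%, beside 18.6% of all genes tested), and in none of them did both lie below (beside 18.9%). The list's median log2 fold change was 0.43, beside 0 over all genes, and 34 of 37 members were positive. At an unadjusted p under 0.05, 20 members were higher (beside 4.43% of all genes) and 0 lower (beside 5.98%). The adjusted p of edgeR was past the threshold for 0 members. DESeq2 called 9 members with 10 libraries, all higher, beside 0.469% of all genes with an adjusted p. With the naive libraries alone it called 13, all higher, beside 0.379%. The median was between 0.38 and 0.55 when each naive library was left out in turn and 0.43 without the 2 doubted cultured libraries. The list was drawn up with earlier results of these data known. In bulk RNA, more cells with the transcript and more transcript per cell cannot be told apart.

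Irf7, the transcription factor that amplifies type I interferon responses, was 114 and 106 CPM in wild-type cells and 173 and 198 CPM in deficient cells. The genotypes lay apart, with a log2 fold change of 0.76 ± 0.10 and an adjusted p of 0.0523 by edgeR. Oasl2, an oligoadenylate synthetase-like protein, was 17.01 and 14.2 CPM in wild type and 38.2 and 47.9 CPM in deficient cells (1.47 ± 0.21, adjusted p = 0.0685 by edgeR). Ifi27l2a was 43.9 and 51.3 CPM in wild type and 82.0 and 89.3 CPM in deficient cells (0.85 ± 0.12, adjusted p = 0.0616 by edgeR). For each of these 3 genes the lower deficient library was more than 1.5 times the higher wild-type library, and DESeq2's adjusted p with 10 libraries was between 2.21e-07 and 2.33e-05.

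Other antiviral effectors also lay apart. Mx1, a GTPase that blocks influenza virus, was 3.23 and 6.19 CPM in wild type and 13.5 and 22.8 CPM in deficient cells. Rsad2, which encodes viperin, was 3.47 and 6.19 CPM against 14.6 and 19.9 CPM. In both genes wild-type library 1 was lowest and deficient library 2 highest. Ifit1 and Ifit3, which bind foreign RNA or its sensors, were 29.6 and 34.3 CPM against 53.05 and 78.6 CPM, and 13.4 and 17.6 CPM against 36.2 and 54.2 CPM. Their log2 fold changes were between 1.04 and 1.94 with edgeR adjusted p-values between 0.202 and 0.302.

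Usp18, which removes ISG15 from proteins and dampens interferon receptor signalling, was 36.7 and 33.6 CPM in wild type and 58.1 and 72.5 CPM in deficient cells. Oas2, an oligoadenylate synthetase, was 101 and 72.6 CPM against 159 and 146 CPM. Tap1, the peptide transporter, had a high level and a smaller gap. It was 580 and 594 CPM against 702 and 713 CPM. The members that overlapped included Bst2, Gbp2, Ifi35 and the immunoproteasome gene Psmb8, at 378 and 288 CPM against 300 and 283 CPM.

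**Figure D4:**
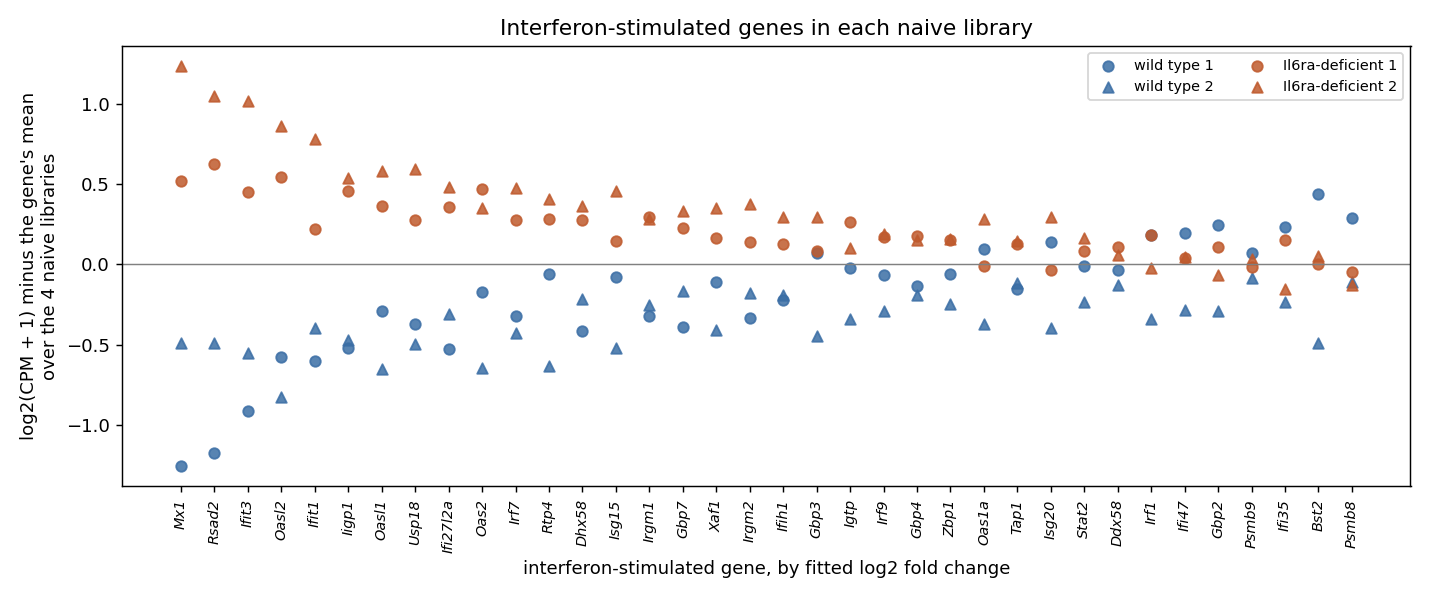
log2(CPM + 1) of 36 interferon-stimulated genes in each naive library, minus the gene's mean over the 4 libraries, ordered by fitted fold change, with blue for wild type, orange for Il6ra-deficient, circles for replicate 1 and triangles for replicate 2. Both orange points lie above both blue points in 27 of these genes, and the genes that overlap, such as Oas1a, Bst2 and Psmb8, lie toward the right, at smaller fold changes.

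Many of these genes share a promoter element, the interferon-stimulated response element, searched as GAAA, any 2 bases and GAAA again, on both strands of the 250 bases before the first-listed RefSeq start (GRCm38.p6). The motif was found before 3.04% of 27025 genes, before 13 of the 27 interferon-stimulated members with an entry (48.1%) and before 9 of 16 tested HIN-200 and Slfn genes (56.2%). A match is a description of the letters in this window. The promoters of 3 members with large folds are shown with the matches in capitals (here on the opposite strand, read as TTTC, 2 bases and TTTC), followed by that of Oasl2, which has no match in this window; no match overlapped the STAT palindrome. Ifit1 spans chr19:34640639-34640888 and Ifit3 chr19:34583279-34583528, both on the plus strand, Rsad2 chr12:26456453-26456702 on the minus strand and Oasl2 chr5:114896684-114896933 on the plus strand, all written 5′ to 3′ up to the start site.
Ifit1: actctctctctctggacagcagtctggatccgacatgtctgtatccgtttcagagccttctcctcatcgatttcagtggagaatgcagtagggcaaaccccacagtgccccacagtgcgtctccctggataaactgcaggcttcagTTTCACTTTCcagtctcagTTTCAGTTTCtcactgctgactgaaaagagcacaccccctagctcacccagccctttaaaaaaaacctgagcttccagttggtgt
Ifit3: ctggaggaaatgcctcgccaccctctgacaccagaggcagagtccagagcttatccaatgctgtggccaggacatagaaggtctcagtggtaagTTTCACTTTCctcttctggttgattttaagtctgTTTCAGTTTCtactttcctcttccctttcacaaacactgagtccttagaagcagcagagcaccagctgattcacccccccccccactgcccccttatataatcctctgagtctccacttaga
Rsad2: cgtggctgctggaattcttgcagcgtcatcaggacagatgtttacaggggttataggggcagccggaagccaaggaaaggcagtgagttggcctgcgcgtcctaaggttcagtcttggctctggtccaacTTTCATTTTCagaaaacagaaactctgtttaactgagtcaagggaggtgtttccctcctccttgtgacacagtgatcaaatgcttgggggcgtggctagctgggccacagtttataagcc
Oasl2: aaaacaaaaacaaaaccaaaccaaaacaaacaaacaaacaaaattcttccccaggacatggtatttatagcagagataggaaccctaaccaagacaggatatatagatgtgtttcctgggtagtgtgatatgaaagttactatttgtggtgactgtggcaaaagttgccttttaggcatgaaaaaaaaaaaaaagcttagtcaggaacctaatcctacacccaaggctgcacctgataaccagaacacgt

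The HIN-200 proteins, which sense or bind DNA, and the Schlafen proteins are also induced by interferon. Of 16 tested members, 12 had both deficient libraries above both wild-type libraries (75%, beside 18.6% of all genes) and 1 had both below (6.25%, beside 18.9%). At an unadjusted p under 0.05, 6 were higher and 1 lower, beside 4.43% and 5.98% of all genes. Ifi213 was 280 and 295 CPM in wild type and 419 and 422 CPM in deficient cells, and Ifi206 was 152 and 147 CPM against 203 and 219 CPM. Both were tight within each genotype, with log2 fold changes of 0.55 ± 0.11 and 0.50 ± 0.09 and edgeR adjusted p-values of 0.203 and 0.202. Ifi208 was the exception, at 223 and 203 CPM in wild type and 150 and 151 CPM in deficient cells (-0.50 ± 0.11, adjusted p = 0.263 by edgeR). Slfn5 was 120 and 177 CPM against 210 and 250 CPM, and Slfn8 was 141 and 186 CPM against 215 and 242 CPM. The HIN-200 genes are close copies of each other, so reads of one may be lost or counted to another.

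Genes of MHC class I presentation are also under interferon control. Classical H2-K1 was 5044 and 4294 CPM in wild type and 5067 and 4987 CPM in deficient cells, and H2-D1 also overlapped. Among non-classical genes, H2-Q6 was 414 and 403 CPM against 786 and 734 CPM (0.90 ± 0.14, adjusted p = 0.0701 by edgeR, 3.63e-09 by DESeq2 with 10 libraries). H2-T24 was 67.4 and 70.8 CPM against 110 and 118 CPM, and H2-Q7 was 1168 and 1057 CPM against 1549 and 1450 CPM. Nlrc5, the transactivator of MHC class I genes, was 501 and 539 CPM against 690 and 686 CPM. Of 21 tested members, 9 had both deficient libraries above both wild-type libraries (42.9%, beside 18.6% of all genes) and 1 had both below (4.76%, beside 18.9%). H2-Q genes are near-identical copies, so their counts are uncertain.

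Among the other conditions, interferon-stimulated members were higher more often than all genes only in the colon, as in naive cells. With hyper-IL-6 culture, 4 of 37 members (10.8%, beside 16% of all genes) had both libraries labelled deficient above both wild-type libraries. In 1 member both lay below (2.7%, beside 15.2%). The doubted library is among those labelled deficient. Before transfer, 1 member had every deficient library above every wild-type library (2.7%, beside 8.64%) and 0 below (beside 8.18%). In the colon, 13 members did so (35.1%, beside 8.25%) and 0 were below (beside 6.32%). Irf7 in the colon was between 54.9 and 67.5 CPM in wild type and between 71.5 and 81.2 CPM in deficient cells. These differences between conditions were not tested for the list.

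Markers of other cell types were set beside this pattern. Of 17 tested myeloid and dendritic genes, 2 had both deficient libraries above both wild-type libraries (11.76%, beside 18.6% of all genes). In 3 both lay below (17.65%, beside 18.9%). The list summed to 355 and 229 CPM in wild type and 256 and 262 CPM in deficient cells. B cell genes summed to 482 and 476 CPM in wild type and 418 and 510 CPM in deficient cells, most of it Ighm. Of 18 tested, 0 had both deficient libraries above (beside 18.6%) and 1 had both below (5.56%, beside 18.9%). The median log2 fold change of the 18 tested B cell genes was 0.58, above that of the interferon-stimulated list, and it ranged from -2.75 without deficient library 2 to 2.37 without wild-type library 2. Cytotoxic and NK genes summed to 99.7 and 98.0 CPM against 79.1 and 97.8 CPM. Of 16 tested, 1 had both deficient libraries above (6.25%, beside 18.6%) and 2 had both below (12.5%, beside 18.9%). Siglech was 0.293 and 0.339 CPM in wild type and 0 and 0.157 CPM in deficient cells, and Ms4a1 was at 0 in both first libraries. The part of other cells in the interferon-stimulated difference was not tested.

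Some genes of acute stimulation differed widely between libraries of the same genotype. The 3 shown were chosen for a high library 1 in both genotypes. Maff, a small MAF factor, was 37.5 and 3.05 CPM in wild type and 32.5 and 6.14 CPM in deficient cells. Tnfaip3, the inhibitor of NF-kappaB known as A20, was 1273 and 368 CPM against 1521 and 780 CPM, and Dusp5, a MAP kinase phosphatase, was 204 and 45.3 CPM against 238 and 97.6 CPM. Library 1 was above library 2 in both genotypes for all 3 genes. The 32 genes of the stimulation list summed to 11820 and 6209 CPM in wild type and 9299 and 7394 CPM in deficient cells, and their median log2 fold change was 0.00. The median gap from library 1 to library 2 in log2(CPM + 1) was 0.61 for the wild-type pair and 0.15 for the deficient pair. The 23 heat shock and stress genes summed to 7888 and 4163 CPM against 5483 and 4410 CPM, with a median of -0.18, which was 0.22 without wild-type library 1 and -0.42 without wild-type library 2. The part of this state of the libraries in the genotype values was not tested.

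Within the stimulation list, 5 of 32 members had both deficient libraries below both wild-type libraries (15.6%, below the 18.9% of all genes), among them Zfp36, Tnf and Il2ra. Zfp36, which destabilises cytokine mRNA, was 693 and 564 CPM in wild type and 389 and 452 CPM in deficient cells (log2 fold change -0.58 ± 0.12, adjusted p = 0.202 by edgeR and 0.00469 by DESeq2 with 10 libraries). Tnf was 24.1 and 28.3 CPM against 14.1 and 18.9 CPM. Il2ra, the alpha chain of the IL-2 receptor, was 14.3 and 13.1 CPM against 8.57 and 10.2 CPM, with a log2 fold change of -0.54 ± 0.14 and an adjusted p of 0.306 by edgeR. These were named after their values were seen.

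Many genes of energy metabolism had lower values in deficient cells, and the first wild-type library was often the highest. Of 32 nuclear genes of oxidative phosphorylation, 19 had both deficient libraries below both wild-type libraries (59.4%, beside 18.9% of all genes) and 1 had both above (3.12%, beside 18.6%), and the median log2 fold change was -0.24. Cox4i1, a subunit of cytochrome c oxidase, was 285 and 199 CPM in wild type and 185 and 167 CPM in deficient cells, and Ndufa2, of complex I, was 56.6 and 35.7 CPM against 30.8 and 28.6 CPM. In both, wild-type library 1 was the highest by a wide margin. Without that library the list's median was -0.07, and without wild-type library 2 it was -0.40. In glycolysis 12 of 23 genes had both deficient libraries below (52.2%, beside 18.9%) and 3 had both above (13%, beside 18.6%). Ldha, lactate dehydrogenase, was 566 and 387 CPM against 353 and 358 CPM, and Pgam1, a phosphoglycerate mutase, was 8.85 and 6.48 CPM against 4.49 and 4.50 CPM (-0.76 ± 0.16, adjusted p = 0.202 by edgeR and 0.0135 by DESeq2 with 10 libraries). The 11 mitochondrially encoded genes had a median of -0.17, which was -0.04 over the 7 left by a stricter filter and -0.06 over the 8 tested in the naive libraries alone.

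Cell cycle genes, at the low levels of resting cells, had a median log2 fold change of -0.34 over 27 genes. Of these, 9 had both deficient libraries below both wild-type libraries (33.3%, beside 18.9% of all genes) and 0 had both above (beside 18.6%). At an unadjusted p under 0.05, 9 were lower, beside 5.98% of all genes, and 0 were higher. E2f1, a factor of S phase entry, was 6.50 and 4.07 CPM in wild type and 2.07 and 3.17 CPM in deficient cells, and Top2a, a topoisomerase of dividing cells, was 12.6 and 15.4 CPM against 8.99 and 11.2 CPM. The median was between -0.52 and -0.20 when each naive library was left out in turn. edgeR called 0 of the 27, and DESeq2 with 10 libraries called 1, E2f1 (adjusted p = 0.0202), beside 0.775% of all genes with an adjusted p.

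Genes of naive quiescence and recirculation had a median of 0.06 over 24 genes. Klf3, a repressor of the Krüppel-like family, was 150 and 209 CPM in wild type and 252 and 262 CPM in deficient cells, and Bach2, which restrains effector differentiation, was 184 and 280 CPM against 354 and 312 CPM. Tcf7 was 2390 and 2154 CPM against 1828 and 1933 CPM. These differences had edgeR adjusted p-values between 0.337 and 0.527. Among 16 TGF-beta receptor and SMAD genes, 7 had both deficient libraries above (43.8%, beside 18.6% of all genes) and 2 below (12.5%, beside 18.9%). Smad7, the feedback inhibitor of TGF-beta signalling, was 431 and 330 CPM against 543 and 441 CPM. Among 19 regulatory T cell genes, 8 had both deficient libraries below (42.1%, beside 18.9%) and 1 above (5.26%, beside 18.6%), and the list summed to 460 and 381 CPM against 381 and 349 CPM. Among 25 genes of the T cell receptor complex and its proximal signalling, 10 lay below (40%, beside 18.9%) and 3 above (12%, beside 18.6%), with a median of -0.09.

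**Figure D5:**
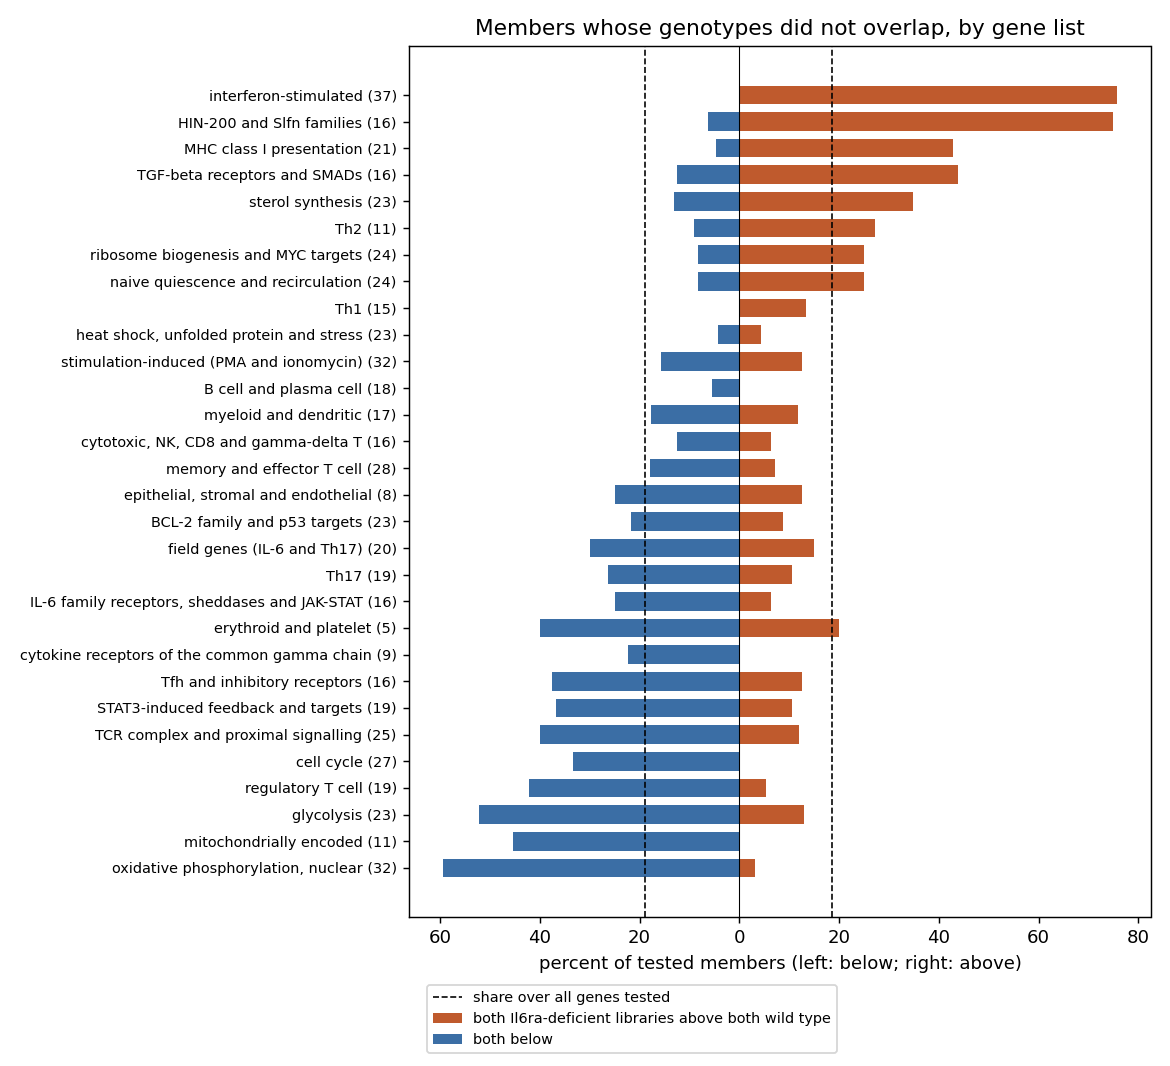
Percent of tested members of each gene list (number in brackets) with both Il6ra-deficient libraries above both wild-type libraries (orange, right) or below them (blue, left), with dashed lines at 18.6% and 18.9%, the shares over all genes tested. Interferon-stimulated and HIN-200 and Slfn genes reach about 75% above, and nuclear oxidative phosphorylation genes 59.4% below.

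Other genes with small p-values belonged to none of these lists and were named after their values were seen. Rell1, of the RELT receptor family, was 5.47 and 7.08 CPM in wild type and 18.8 and 23.3 CPM in deficient cells (1.74 ± 0.22, adjusted p = 0.0523 by edgeR). Rell1 was also higher in every deficient library before transfer (38.3 and 60.5 CPM against 29.7 and 25.03 CPM) and in the colon (between 62.1 and 72.2 CPM against between 44.1 and 44.98 CPM). Cd86, a ligand of CD28 and CTLA-4, was 5.18 and 4.92 CPM in wild type and 15.6 and 12.8 CPM in deficient cells (1.49 ± 0.19, adjusted p = 0.0523 by edgeR). It was likewise higher in every deficient library before transfer (16.5 and 19.4 CPM against 12.0 and 4.41 CPM) and in the colon (between 27.0 and 34.6 CPM against between 11.1 and 14.2 CPM).

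Rnf213, a large ubiquitin ligase that restricts intracellular pathogens, was 887 and 1114 CPM in wild type and 1807 and 1828 CPM in deficient cells (0.86 ± 0.13, adjusted p = 0.0685 by edgeR). Rnf157, another ubiquitin ligase, was 15.5 and 18.1 CPM against 4.65 and 6.26 CPM (-1.61 ± 0.23, adjusted p = 0.0644 by edgeR). Slc7a5, a subunit of the large neutral amino acid transporter, was 47.4 and 55.0 CPM against 88.9 and 77.0 CPM, and Dtx1, a regulator of Notch signalling, was 288 and 328 CPM against 475 and 434 CPM. Lars2, the mitochondrial leucyl-tRNA synthetase, was 115 and 145 CPM against 78.1 and 66.0 CPM. In each of these 5 genes the genotypes did not overlap. DESeq2 with 10 libraries gave all 5 an adjusted p under 0.05, between 2.35e-09 and 0.00223.

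The same genotype contrast with hyper-IL-6 culture, in libraries that the naive contrast does not use, gave few differences. edgeR called 0 of 14926 genes (0%), with 351 at an unadjusted p under 0.05 (2.35%), and DESeq2 called 3. Of the 661 genes higher in naive deficient cells at that p, 6 were also higher at that p with hyper-IL-6, which is 0.91% beside 0.938% of all genes. Of the 893 lower ones, 15 were also lower, which is 1.68% beside 1.41%. Socs3 had a log2 fold change of 0.15 with hyper-IL-6, Irf7 of -1.02 and Oasl2 of 0.12, the last 2 at far lower levels. Among the libraries labelled deficient is the doubted one, and without it a single deficient library is left, so no count is given.

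The difference between the naive and the hyper-IL-6 genotype effect was tested directly. edgeR called 0 of 14926 genes, with 1267 at an unadjusted p under 0.05 (8.49%), while DESeq2 called 45 of 11292 genes with an adjusted p. The naive log2 fold change minus that with hyper-IL-6 was positive in 28 of them and negative in 17. The sign does not say in which setting the effect was larger: Slc35e4, lower in naive deficient cells, was at -3.88. Leaving out a naive library or the doubted cultured libraries leaves a single library in a compared group, so counts of those fits are not given. In the fit with all libraries the Pisd-ps1 difference was 2.27 ± 0.32 with an adjusted p of 0.417 by edgeR. DESeq2 with the same 10 libraries gave 2.27 with an adjusted p of 4.43e-07, so the 2 tools differed on this gene.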

How the data were processed

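The deposited tables hold whole-number read counts per gene, 1 table per library, not normalised by the authors. The submitters' processing notes name R 3.4.3, HTSeq 0.7.2, STAR 2.5.3, DESeq2 1.18.1, SAMtools 0.1.18 and the build GRCm38 (mm10). The library kit of the culture experiment, the HTSeq strand setting and the annotation release are not given in the sources used here, so overlapping, antisense and near-identical genes are uncertain. Each table has 39179 gene IDs, of which 37693 were named from GENCODE M21 of GRCm38. The 5 summary lines were left out. Reads in no gene were between 28.2% and 31.9% in the naive libraries.

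The 10 libraries of the culture experiment were fitted together with edgeR 4.0.16 (R 4.3.3): TMM scaling, filterByExpr, 5 groups, quasi-likelihood F test, Benjamini-Hochberg adjustment, threshold 0.05. This tested 14926 genes with 5 residual degrees of freedom and a common coefficient of variation of 0.124, and 0.147 in the naive libraries alone. SEs were derived from the log2 fold change and its F. The transfer experiment is described by CPM only. Alternatives were RLE scaling, other filters, DESeq2 1.42.0, naive libraries only, a 1.5-fold minimum, the replicate number as a block and each library left out, and, chosen after seeing the data, the fit without the 2 doubted cultured libraries. The test was tested on simulated counts.

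Samples were grouped by source label. The replicate numbers share no animal or batch in the labels and were not taken to pair libraries. The mean chi-square per gene between naive libraries was between 9.95 and 55.3, so no library was a duplicate. Members and gene lists were chosen with earlier results of these data known. The rule for named genes took 20 genes linked to IL-6 and Th17 cells, up to 10 genes per direction with the largest changes past the threshold (mean log2 CPM of at least 2, genotypes not overlapping, no predicted genes, RIKEN clones or receptor segments), up to 4 members of each list past the threshold or otherwise the 2 of highest level, genes past the threshold in both genotype contrasts, and those near Il6ra. It named Pisd-ps1 as the only largest change. Most list members of highest level are given by count, and the other genes in the text were named after their values were seen. Sequences are RefSeq's for GRCm38.p6. Some genes are not reported here by name.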

Additional observations from a re-analysis of the deposited data

Results flagged for a closer look

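For 6 named genes every Il6ra-deficient library lay on one side of wild type in naive cells and on the other in the transfer experiment. Of 67 examined genes whose naive genotypes did not overlap, 19 lay apart in the same direction in the colon and 5 in the opposite one. Before transfer, 12 did so in the same direction and 1 in the opposite one. The difference between the settings was not tested, and with 2 or 3 libraries per group such patterns also arise by chance. Differences are means of log2(CPM + 1), deficient minus wild type. In the colon, Foxp3, of regulatory T cells, was 1.19 (-0.48 in naive cells), Pim2, a survival kinase, 1.23 (-0.72), Rnf157, a ubiquitin ligase, 0.78 (-1.47), Il2ra, the IL-2 receptor alpha chain, 0.64 (-0.50), and Emid1 0.68 (-1.09), the last at about 1 CPM in the colon. Before transfer, Ifi208, of the HIN-200 family, was 0.13 (-0.50).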

How the results depend on the processing

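The count of genes called in naive cells was 1 with all 10 libraries and edgeR, and also with RLE scaling and the stricter filter. It was 439 with no filter, 91 with DESeq2, 5 with edgeR and 66 with DESeq2 on the naive libraries alone, 0 with a minimum fold of 1.5, 8 without the 2 doubted cultured libraries, and between 0 and 902 with each naive library left out. The hyper-IL-6 count was 0, but 74 with no filter, 3 with DESeq2, 2 without the doubted libraries and between 0 and 1 with each library left out. The count for the difference was 0, but 271 with no filter, 45 with DESeq2, 1 without the doubted libraries and between 0 and 392 with each library left out. The cause was not tested.

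Within 20 Mb of Il6ra 0 of 362 genes tested were called, but 8 with no filter and 3 with DESeq2. Near Il17f, the reporter locus, 0 of 124 were called, but 2 with no filter. Near Ptprc 0 of 176 were called, but 7 with no filter and 1 with DESeq2. Over all genes, 439 of 23735 were called with no filter and 91 of 11736 with DESeq2. Window sizes under those settings are not given, so these counts are not read as effects of a locus.

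With the replicate number as a block, 10 libraries gave 0 called genes (Pisd-ps1 at an adjusted p of 0.0929, Maff at a log2 fold change of 0.0035) and the naive libraries alone gave 247, 152 of them higher, with Bst2 at 0.0452 and Maff at 0.252. That block gave 3 genes near Il6ra, 2 near Il17f and 1 near Ptprc, beside 247 of 12858 genes over the genome. Deviations of same-numbered naive libraries correlated at 0.156, the highest value among pairs of groups in the culture experiment. The other pairs lay between -0.164 and 0.0427. The labels give no pairing, so the numbers were not taken as pairs, and an effect shared by number was not tested.

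The alternatives were run for 84 genes, not for cell markers given as levels only, and 68 kept the sign of their log2 fold change in all of them. Of the 84, 67 had naive genotypes that did not overlap. For such genes leaving out a library leaves the sign nearly fixed, so the count of 68 does not measure how robust they are. Il6st was 0.0063 with no filter and 1e-04 with DESeq2. With each naive library left out, the genes that changed sign ranged as follows: Il6st from -0.0486 to 0.0549, Jak1 from -0.0809 to 0.0702, Maf from -0.571 to 0.193, Bcl6 from -0.826 to 0.0187, Psmb8 from -0.375 to 0.0271, Bst2 from -0.418 to 0.533, Dusp5 from -0.352 to 1.89, Fosb from -0.409 to 1.34, Gbp2 from -0.227 to 0.322, H2-D1 from -0.184 to 0.253, H2-K1 from -0.0056 to 0.233, Ifi35 from -0.229 to 0.252, Maff from -1.71 to 2.64, Pisd from -0.296 to 0.216, Tnfaip3 from -0.148 to 1.65 and Cxcr4 from -0.165 to 1.82.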
